A study of Mus musculus with 25 samples.

Results

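The inducible heat shock chaperones are 10 genes whose products hold, refold or clear damaged proteins: the HSP70 proteins *Hspa1a*, *Hspa1b* and *Hspa8*, their co-chaperones *Dnajb1*, *Dnajb4*, *Hsph1* and *Bag3*, the HSP90 protein *Hsp90aa1*, and the small heat shock proteins *Hspb1* and *Cryab*. They were taken by symbol from a count table of 52636 genes, and all 10 were among the 16340 genes that passed the filter on low counts. RNA was sequenced from a single *soleus* muscle of each of 25 C57BL/6 mice aged 12 weeks. Of the 12 rested mice 5 were WT and 7 mD3AKO, and of the 13 mice killed 60 minutes after exercise 7 were WT and 6 mD3AKO. All 25 mice were homozygous for a *Dnmt3a* allele with LoxP sites around exon 19 (*Dnmt3a* flox/flox). WT mice had no Cre, and mD3AKO mice also carried a Cre transgene driven by the muscle creatine kinase promoter (*mCK-Cre*), which is active late in muscle differentiation and is not aimed at the other cells of the muscle. Exercise was a treadmill run of 30 minutes at 16 m/min and an incline of 5%, and rested mice spent 30 minutes on a sham treadmill. Each group held both sexes, with 2 females and 3 males among the rested WT mice, 4 and 3 among the exercised WT mice, 3 and 4 among the rested mD3AKO mice, and 3 and 3 among the exercised mD3AKO mice. The comparisons ask how these transcripts responded to a bout of exercise, and whether loss of *Dnmt3a* from muscle fibers changed their level or their response.

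In the heat shock response, unfolded proteins draw chaperones away from the transcription factor HSF1, which then forms trimers, binds repeated GAA units in the promoters of chaperone genes and raises their transcription within minutes. HSP70 binds exposed hydrophobic stretches of a client protein in a cycle that J-domain proteins start and nucleotide exchange factors end, HSP90 finishes the folding of many kinases and receptors, and small heat shock proteins hold unfolded proteins without using ATP. In contracting muscle, BAG3 works with HSP70 and the small heat shock protein HSPB8 to remove damaged filamin from the Z-disc, and alpha-B-crystallin (*Cryab*) and HSP27 (*Hspb1*) bind to the sarcomere under load.

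The libraries held 22671457 to 37431801 counts, with a median of 32189360. *Dnmt3a*, the targeted gene, had 93.4 to 131 CPM in WT mice and 34.5 to 53.9 CPM in mD3AKO mice, where CPM is the usual per-million scale after TMM normalization of the library sizes. Mouse 15, a rested mD3AKO male, stood apart with 39.5% of its counts on 3 genes of ribosomal RNA, where no other library had less than 7.75% or more than 13.0%, and the counts of called members below include it unless stated. Slow and fast fiber markers were abundant in each library, with summed levels of 26999 to 51373 CPM over 7 slow fiber genes and of 24028 to 47157 CPM over 8 fast fiber genes. The mouse numbers of the labels run from 1 to 6 and from 20 to 25 in females and from 7 to 19 in males, and the labels do not say what the numbers stand for. Sex and the range of mouse numbers cannot be told apart here.

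The start sites of the members were examined for the paired GAA units that HSF1 is known to bind. Promoter windows of 300 bases, from 250 bases before to 50 bases after the start, were taken from RefSeq (build GRCm38.p6) and matched 7 of the 10 members by symbol, all but *Hspa8*, *Hsp90aa1* and *Cryab*. Both strands were searched for GAANNTTC and for TTCNNGAA, which each read the same on both strands and can overlap each other. In the first window of each gene, 5 of the 7 members held at least 1 match, while 15.1% of all 32851 promoter windows of this length did. A match is only a description of the letters. The windows below are those of the members that the results turn on, printed 5′ to 3′ on the strand of the gene, with each match in capitals. *Hspa1a* (chr17:34972107-34972406, minus strand) and *Hspa1b* (chr17:34959189-34959488, minus strand) are neighbouring copies whose windows were identical at 296 of 300 bases (98.7%), and both held GAAGATTC 104 bases before the start. *Hsph1* (chr5:149636287-149636586, minus strand) held TTCTCGAA 33 bases before the start and the run TTCTGGAAAGTTC, in which both motifs overlap, 37 bases after it. *Hspb1* (chr5:135887669-135887968, plus strand) held a match 117 and another 97 bases before the start. No match lay in the first windows of *Dnajb1* (chr8:83607925-83608224, plus strand) and *Dnajb4* (chr3:152210034-152210333, minus strand), and *Dnajb4* held TTCTAGAA 14 bases before an alternative start 16457 bases inside the gene.
Hspa1a: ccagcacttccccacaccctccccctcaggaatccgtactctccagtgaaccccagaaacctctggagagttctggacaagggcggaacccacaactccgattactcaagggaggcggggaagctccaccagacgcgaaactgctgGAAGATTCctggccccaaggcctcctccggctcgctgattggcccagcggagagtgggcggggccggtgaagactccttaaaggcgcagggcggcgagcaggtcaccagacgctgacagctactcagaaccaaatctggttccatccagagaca
Hspa1b: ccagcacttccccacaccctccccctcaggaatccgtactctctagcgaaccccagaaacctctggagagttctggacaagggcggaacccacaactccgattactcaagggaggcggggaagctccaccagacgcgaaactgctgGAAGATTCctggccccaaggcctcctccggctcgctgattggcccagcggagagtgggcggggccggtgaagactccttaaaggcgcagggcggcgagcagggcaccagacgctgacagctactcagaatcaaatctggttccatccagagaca
Dnajb1: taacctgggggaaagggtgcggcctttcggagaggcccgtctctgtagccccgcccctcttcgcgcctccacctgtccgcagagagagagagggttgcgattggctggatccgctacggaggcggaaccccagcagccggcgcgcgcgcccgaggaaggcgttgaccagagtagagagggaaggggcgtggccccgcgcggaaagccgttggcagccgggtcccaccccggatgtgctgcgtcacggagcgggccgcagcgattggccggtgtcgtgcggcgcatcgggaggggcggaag
Dnajb4: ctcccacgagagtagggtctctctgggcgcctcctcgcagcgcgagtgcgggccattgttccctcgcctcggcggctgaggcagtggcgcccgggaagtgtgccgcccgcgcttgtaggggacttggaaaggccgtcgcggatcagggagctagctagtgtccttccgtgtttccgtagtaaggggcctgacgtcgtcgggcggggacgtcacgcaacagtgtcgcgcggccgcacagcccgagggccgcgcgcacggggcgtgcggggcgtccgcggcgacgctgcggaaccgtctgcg
Hsph1: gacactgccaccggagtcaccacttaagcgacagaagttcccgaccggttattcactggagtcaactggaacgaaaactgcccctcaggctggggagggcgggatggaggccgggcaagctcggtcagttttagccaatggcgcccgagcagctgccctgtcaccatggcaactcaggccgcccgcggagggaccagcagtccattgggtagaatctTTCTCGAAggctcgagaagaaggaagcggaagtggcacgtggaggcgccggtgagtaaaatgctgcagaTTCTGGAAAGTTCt
Hspb1: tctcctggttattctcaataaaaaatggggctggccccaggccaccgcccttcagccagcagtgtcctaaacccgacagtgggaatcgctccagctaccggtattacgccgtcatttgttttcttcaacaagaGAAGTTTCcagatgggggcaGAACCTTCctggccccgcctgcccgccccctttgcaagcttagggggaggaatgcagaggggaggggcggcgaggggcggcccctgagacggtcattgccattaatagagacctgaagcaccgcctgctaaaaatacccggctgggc

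Reads of some members could have been counted on close copies, because the options used for multiply mapped reads and for strand are not given in the sources used here. Of all runs of 31 bases in the *Hspa1a* transcripts, 63.8% also occur in *Hspa1b*, and 67.6% of those of *Hspa1b* occur in *Hspa1a*. For this reason the sum of both genes was tested too. *Hspa8* shared 44.8% of its runs, *Hsp90aa1* 51.5% and *Hspb1* 55.4%, and the genes that shared most with each of these 3, at most 3 genes each, had 1 to 888 counts over all 25 libraries. *Cryab* overlaps *Hspb2* on the opposite strand over 252 exonic bases, and *Hsph1* and *Bag3* shared no run of 31 bases with another gene.

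At rest the members differed widely in level per length of transcript, given as CPM per kb of exon (mean ± SD, n = 12). *Cryab*, the small heat shock protein of the sarcomere, stood far above the others at 1093 ± 179. *Hspa8*, the constitutive HSP70 of all cells, had 142 ± 11.7 and *Hspb1* had 139 ± 26.5, a pair that did not differ beyond its spread. *Bag3* followed with 55.8 ± 7.29, *Dnajb4* with 17.8 ± 2.56, *Hsp90aa1* with 12.4 ± 1.88 and *Hsph1* with 7.27 ± 1.24. The stress-induced members *Hspa1a* (3.30 ± 1.22), *Dnajb1* (3.14 ± 0.986) and *Hspa1b* (2.90 ± 0.847) were the lowest and lay within each other's spread. After exercise (n = 13) *Hspa1b* (20.5 ± 23.5), *Dnajb1* (17.4 ± 16.4) and *Hspa1a* (16.6 ± 14.7) stood above *Hsph1* (10.1 ± 2.01) in mean level per length, with SDs close to the means.

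Exercise raised 9 of the 10 members over both genotypes (edgeR's quasi-likelihood F test, adjusted p under 0.05), where 5.70% of the 16340 tested genes were called higher. The mean rise was 6.62-fold for *Hspa1b*, 5.18-fold for *Dnajb1* and 4.91-fold for *Hspa1a*. It was 2.05-fold for *Hsp90aa1*, 1.87-fold for *Dnajb4* and 1.86-fold for *Hspb1*. The smallest rises called were those of *Hspa8* (1.43-fold), *Hsph1* (1.40-fold) and *Bag3* (1.27-fold), and *Cryab* did not pass the test. In whole muscle, a change in the share of cells of a type and a change of RNA per cell cannot be told apart.

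**Figure D1:**
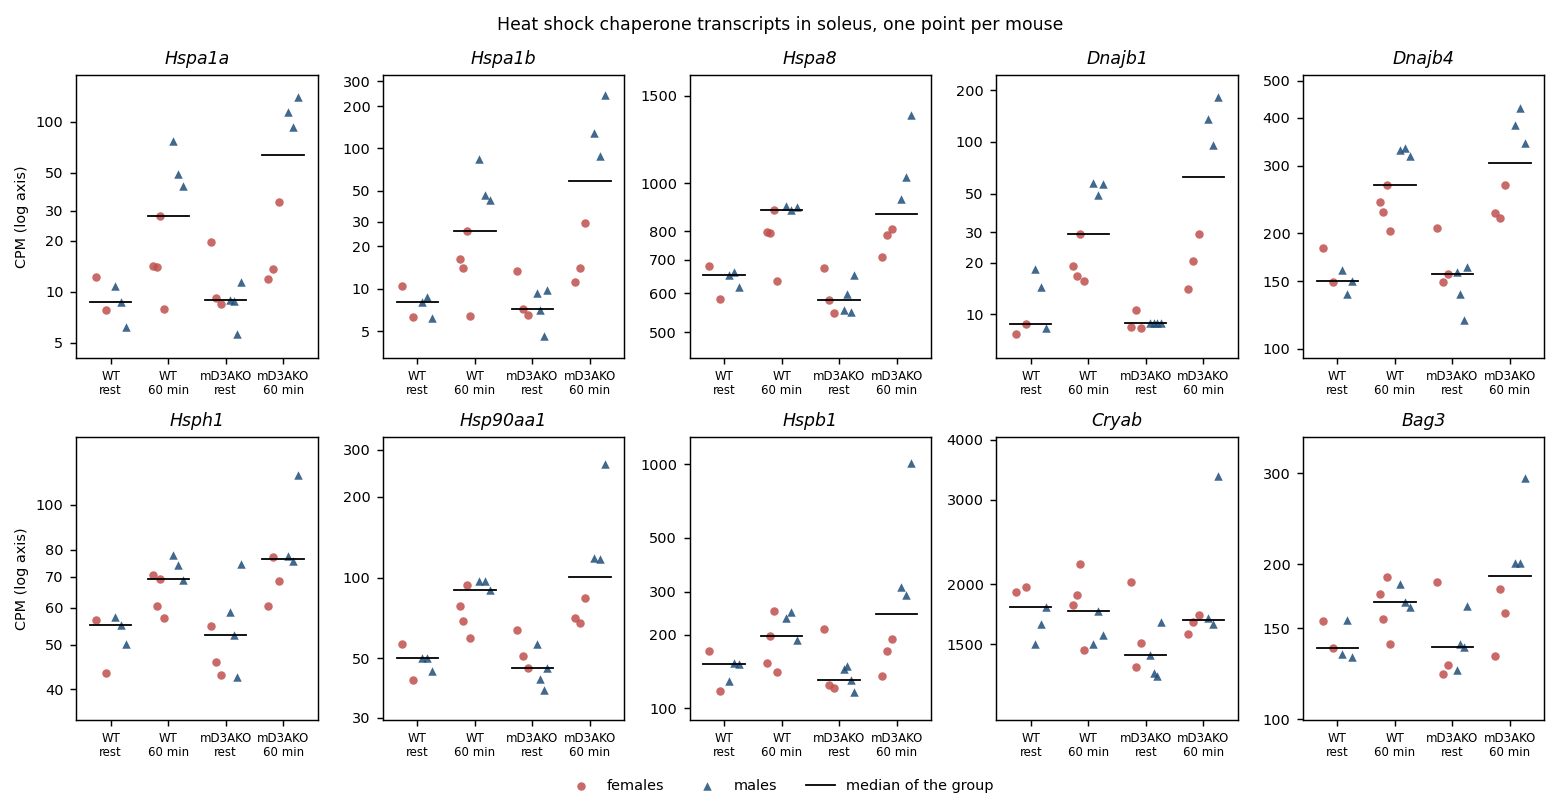
Each panel plots the CPM of 1 transcript on a log axis in the 4 groups, with 1 point per mouse (circles, females; triangles, males) and a line at the median of the group. For *Hspa1a*, *Hspa1b*, *Dnajb1* and *Dnajb4*, each of the 6 exercised males lies above each of the 7 exercised females, and mouse 19, an exercised mD3AKO male, is the single high point for *Hspb1* (1013 CPM) and *Cryab* (3365 CPM).

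Among the HSP70 genes, *Hspa1b* (chromosome 17, 34956436 to 34959238) encodes a stress-inducible HSP70. Rested WT mice had 6.24, 6.28, 8.06, 8.79 and 10.5 CPM, and the 7 rested mD3AKO mice had 4.59 to 13.4 CPM with a median of 7.13. After exercise the 7 WT mice ranged from 6.40 to 84.2 CPM with a median of 25.65, and the 6 mD3AKO mice from 11.2 to 239.6 CPM with a median of 59.0. Most exercised mice lay far above the rested ones, but 2 exercised females, mice 3 and 25, lay within the range of the rested mice. The log2 fold change of exercise was 2.73 (SE 0.44, adjusted p = 8.11e-05 from edgeR).

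*Hspa1a*, the neighbouring copy that encodes the same protein, moved alike. Rested WT mice had 6.21, 7.81, 8.68, 10.7 and 12.2 CPM, and the rested mD3AKO mice had 5.61 to 19.6 CPM with a median of 8.93. The exercised WT mice reached 7.96 to 77.4 CPM (median 28.0) and the exercised mD3AKO mice 11.9 to 140.7 CPM (median 63.5), again overlapping with rest at the low end. Its log2 fold change was 2.30 (SE 0.39, adjusted p = 0.000168 from edgeR), and that of the summed counts of both copies was 2.51 (SE 0.41, adjusted p = 0.000106). The constitutive *Hspa8*, which serves folding and protein transport in unstressed cells, started from a far higher level of 547 to 682 CPM at rest and reached 634 to 1376 CPM after exercise. The ranges met at mouse 25, an exercised WT female with 634 CPM, and the log2 fold change was 0.52 (SE 0.083, adjusted p = 7.6e-05).

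The J-domain co-chaperones rose as well. *Dnajb1*, the HSP40 that pairs with inducible HSP70, had 7.70, 8.31, 8.82, 14.4 and 18.4 CPM in rested WT mice and 8.30 to 10.6 CPM (median 8.88) in rested mD3AKO mice. After exercise it had 15.6 to 57.6 CPM (median 29.1) in WT and 14.1 to 182.6 CPM (median 62.8) in mD3AKO mice, so that only the rested WT males 11 and 13, at 18.4 and 14.4 CPM, reached into the exercised range. The log2 fold change was 2.37 (SE 0.35, adjusted p = 2.5e-05 from edgeR). *Dnajb4*, a related J-domain protein that is abundant in muscle, rose from 119 to 207 CPM at rest to 203 to 424 CPM after exercise, with 1 rested mouse (mouse 2) above the lowest exercised one. It had the lowest adjusted p of the members (log2 fold change 0.90, SE 0.11, adjusted p = 1.68e-06).

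Of the nucleotide exchange factors, *Hsph1* (HSP110) had 42.5 to 74.4 CPM at rest and 57.0 to 116 CPM after exercise. The highest rested value was that of mouse 15, the library with many ribosomal reads, and without that mouse the log2 fold change of 0.48 (SE 0.095, adjusted p = 0.000889 from edgeR) was 0.53. *Bag3*, which couples HSP70 to small heat shock proteins and to autophagy, had 122 to 185 CPM at rest and 133 to 294 CPM after exercise, with wide overlap (log2 fold change 0.34, SE 0.094, adjusted p = 0.0169). *Hsp90aa1*, the inducible HSP90, rose from 38.1 to 64.0 CPM at rest to 59.6 to 264 CPM after exercise, and the median went from 48.1 to 90.3 CPM (log2 fold change 1.04, SE 0.17, adjusted p = 6.72e-05).

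Of the 2 small heat shock proteins, the test called *Hspb1* and not *Cryab*, and the difference between them was not tested. *Hspb1* (HSP27) had 117 to 212 CPM at rest and 136 to 1013 CPM after exercise, and the next highest exercised mouse had 314 CPM. Its log2 fold change of 0.90 (SE 0.23, adjusted p = 0.00975 from edgeR) became 0.55 without mouse 19, with an adjusted p of 0.00723. *Cryab* had 1285 to 2024 CPM at rest and 1457 to 3365 CPM after exercise, where mouse 19 was the highest and the next had 2206 CPM. The interval of its log2 fold change (0.17, 95% interval −0.055 to 0.40, adjusted p = 0.409 from edgeR) includes no change, and without mouse 19 the value was 0.056.

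Within each genotype the same test called different numbers of members. In mD3AKO mice 9 of 10 rose (all but *Cryab*, background 3.70% of tested genes called higher), with log2 fold changes from 0.44 for *Bag3* to 3.37 for *Hspa1b*. *Bag3* was no longer called in these mice without mouse 7, 8, 10, 12, 17, 19, 21 or 24, nor *Hspb1* without mouse 19 (0.63, adjusted p = 0.0555). In WT mice 1 of 10, *Dnajb4*, rose (background 2.16%), although 7 of 10 had an unadjusted p under 0.05, as did 2013 of all 16340 genes, and 9 of 10 had positive log2 fold changes, with 2.08 (SE 0.63, adjusted p = 0.0717 from edgeR) for *Hspa1b* and 1.60 (SE 0.50, adjusted p = 0.0826) for *Dnajb1*. With sex in the model, 6 of 10 rose in WT mice, namely *Hspa1a*, *Hspa1b*, *Hspa8*, *Dnajb1*, *Dnajb4* and *Hsp90aa1*, and DESeq2 called 5. The background of 2.16% does not apply to these fits, and their share of all genes called is not given here. Leaving out mouse 3, 19 or 25 gave 4 members in WT mice, and leaving out mouse 6 gave 3. A call in one genotype and not in the other is no test of their difference, which is given with the genotype comparisons.

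Several chaperones responded more strongly to exercise in males than in females. In the model with 1 mean per sex, genotype and exercise state (17389 genes), exercise raised 9 of 10 members in males (background 3.78% called higher) and 2 of 10, *Dnajb1* and *Dnajb4*, in females (background 2.23%). The difference between the responses of the sexes was called for 4 of 10 members, *Hspa1a*, *Hspa1b*, *Dnajb1* and *Dnajb4*. These were 4 of the 8 genes called among all 17389 (0.0460%), and all 8 had the larger log2 fold change in males. In females, 5 members were called without mouse 19, 4 without mouse 2, 3 without mouse 3, 12, 15 or 25, 1 without mouse 20, and 5 by DESeq2. The other 4 genes called for the difference were *Bcl2l11* (a pro-apoptotic BCL2 protein), *Srxn1* (an enzyme that repairs peroxiredoxins), *Arid5b* (a DNA-binding cofactor) and the unnamed gene *Gm10097*.

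*Hspa1b* went from 4.59 to 9.72 CPM (median 8.06) in the 7 rested males to 43.2 to 239.6 CPM (median 86.4) in the 6 exercised males. In females it went from 6.28, 6.49, 7.13, 10.5 and 13.4 CPM at rest to 6.40 to 29.4 CPM (median 14.2) in the 7 exercised mice. The exercised males lay above all females and all rested males, while the exercised females overlapped with the rested ones. The log2 fold changes were 3.62 (SE 0.33) in males and 0.96 (SE 0.34, adjusted p = 0.16) in females, and their difference was 2.65 (SE 0.45, adjusted p = 0.0217 from edgeR).

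*Hspa1a* had 5.61 to 11.4 CPM in rested and 42.0 to 140.7 CPM in exercised males, against 7.81 to 19.6 CPM in rested and 7.96 to 33.8 CPM in exercised females. Its log2 fold changes were 3.24 (SE 0.31) in males and 0.68 (SE 0.31, adjusted p = 0.38) in females, with a difference of 2.55 (SE 0.42, adjusted p = 0.0175 from edgeR). Leaving out 1 mouse at a time gave 0.37 to 0.93 for *Hspa1a* in females. The sum of both copies differed by 2.62 (SE 0.43, adjusted p = 0.0156). For *Dnajb1* the exercised males reached 49.2 to 182.6 CPM and the exercised females 14.1 to 29.4 CPM, both above every rested mouse of the same sex. Its log2 fold changes were 2.97 (SE 0.19) and 1.26 (SE 0.21, adjusted p = 0.000467), and the difference of 1.71 (SE 0.27) had an adjusted p of 0.0155. *Dnajb4* went to 318 to 424 CPM in males and to 203 to 267 CPM in females, with a difference of 0.77 (SE 0.14, adjusted p = 0.0298). At rest the 2 sexes overlapped for each of these 4 members. The exercised males lay above every exercised female for these 4 members alone, and for 0.881% of tested genes. They lay above every rested male for 7 members, all but *Hsph1*, *Cryab* and *Bag3* (2.39% of tested genes), and the exercised females lay above every rested female for 2, *Dnajb1* and *Hsph1* (1.95%).

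**Figure D2:**
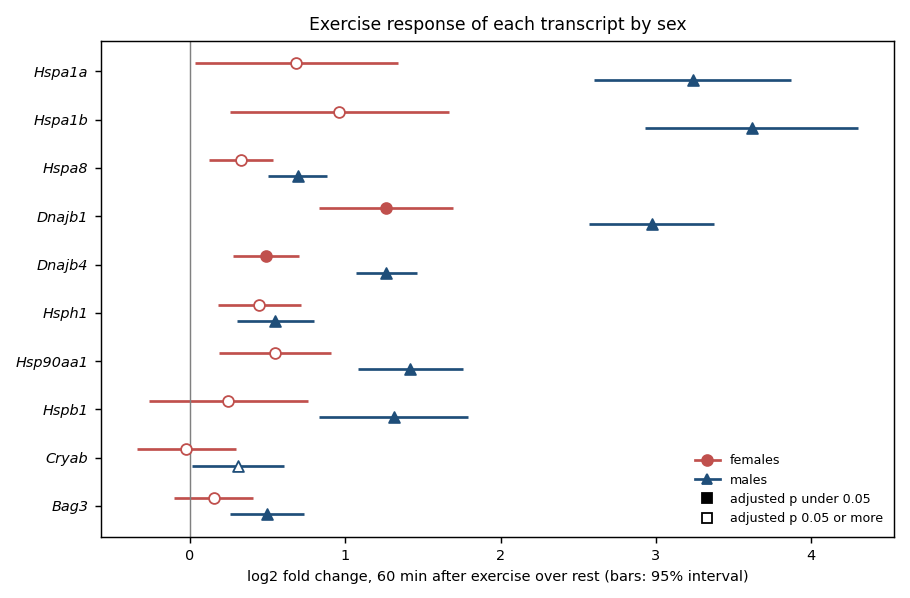
The horizontal axis gives the log2 fold change of 60 minutes after exercise over rest, averaged over genotypes, for each member in females (circles) and males (triangles) with its 95% interval, and filled points passed an adjusted p under 0.05. The intervals of males and females do not overlap for *Hspa1a*, *Hspa1b*, *Dnajb1*, *Dnajb4*, *Hsp90aa1* and *Hspb1*, and overlap widely for *Hsph1* (0.45 in females and 0.55 in males).

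For the other 6 members the difference between the sexes was not called. It was 1.06 (95% interval 0.37 to 1.76) for *Hspb1* and 0.87 (0.39 to 1.36, adjusted p = 0.662 from edgeR) for *Hsp90aa1*. Leaving out 1 mouse at a time gave 0.65 to 1.21 for *Hspb1*. *Hspa8* differed by 0.36 (0.087 to 0.64), *Bag3* by 0.35 (−0.00097 to 0.69) and *Cryab* by 0.33 (−0.10 to 0.77). The value for *Cryab* ran from 0.12 to 0.42 when 1 mouse was left out. *Hsph1* had the smallest difference, 0.10 (−0.26 to 0.47), and it turned to −0.011 without mouse 19 and to −0.0059 without mouse 1. After exercise 7 of 10 members were higher in males than in females (background 1.20%), all but *Hsph1*, *Cryab* and *Bag3*. Without mouse 3, 4, 6, 16, 19 or 25, the calls of *Hspa8* and *Hspb1* in this comparison were lost, and that of *Hspa8* was also lost without mouse 5, 9, 17, 18 or 23. At rest no member differed by edgeR's test (background 1.93% in either direction, 0 of 10 at an unadjusted p under 0.05), and the largest log2 difference of males over females was 0.37 (SE 0.21) for *Dnajb1*.

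Females came in 2 ranges of mouse numbers. The 4 exercised females numbered 3 to 6 had 11.2 to 16.3 CPM of *Hspa1b* and the 3 numbered 22 to 25 had 6.40 to 29.4 CPM, against at least 43.2 CPM in exercised males. At rest the 2 females numbered 1 and 2 had 10.5 and 13.4 CPM of *Hspa1b*, above the 4.59 to 9.72 CPM of the rested males and the 6.28 to 7.13 CPM of the 3 rested females numbered 20 to 24. They were also above all other rested mice for *Hspa1a* (12.2 and 19.6 CPM) and *Dnajb4* (183 and 207 CPM). The same held for *Hspa8* (682 and 675 CPM) and *Hspb1* (172 and 212 CPM), but not for *Dnajb1*, *Hsph1*, *Hsp90aa1*, *Cryab* or *Bag3*. The share of all tested genes for which mice 1 and 2 lay above all other rested mice was not computed. These ranks therefore do not show whether this is particular to the members. The mean of *Hspa1a* was 15.9 CPM at rest and 13.4 CPM after exercise in the females numbered 1 to 6, and 8.47 and 23.2 CPM in those numbered 20 to 25, a difference that was not tested. Within WT mice the sex difference of the response was called for 0 of 10 members (3 at an unadjusted p under 0.05, as were 465 of all 17389 genes, of which 0 were called) and within mD3AKO mice for 1, *Dnajb1* (9 at an unadjusted p under 0.05, as were 923 of all genes, background of adjusted calls 0.0288%). For *Hspa1b* it was 2.01 (SE 0.66) in WT and 3.30 (SE 0.63) in mD3AKO mice. When single mice were left out, *Dnajb1* was called in each of the 25 fits, *Hspa1a* in 22, *Hspa1b* in 18 and *Dnajb4* in 13. Without mouse 1, 2 or 6 only *Dnajb1* was called, without mouse 3, 9, 11 or 14 *Dnajb1* and *Hspa1a*, while *Dnajb4* alone was lost without mouse 10, 13, 16, 17 or 18. Without mouse 15, and without mouse 19, all 4 were called. Robust empirical Bayes estimation called *Dnajb1* and *Dnajb4* alone, and DESeq2 called the same 4 members. Among muscle markers, the summed slow fiber genes had 32743 to 51373 CPM in rested females and 26999 to 32604 CPM in rested males, and 32247 to 43241 CPM against 30540 to 34623 CPM after exercise. Of 7 slow and 8 fast fiber markers, 0 were called for a sex difference of the response, as were only 0.0460% of all tested genes. The part of fiber composition in the members' result was not tested.

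The genotypes were compared over rest and exercise and in each state. For the difference of mD3AKO from WT averaged over rest and exercise, edgeR called 0 of 10 (0 at an unadjusted p under 0.05, background 0.269% in either direction) and DESeq2 0, and the log2 differences ran from −0.035 for *Cryab* to 0.69 for *Hspa1b*. At rest edgeR and DESeq2 called 0 (0 at an unadjusted p under 0.05, background 0.0918% in either direction), and the log2 differences lay between −0.35 for *Dnajb1* and 0.17 for *Hspa1a*. After exercise both tools called 0 (background 0.104% higher), while all 10 differences were positive in mD3AKO mice and 5 had an unadjusted p under 0.05, as did 900 of all 16340 genes. The largest was that of *Hspa1b* at 1.33 (SE 0.55, adjusted p = 0.817 from edgeR), followed by *Dnajb1* at 1.19. Without mouse 19 these values were 0.68 and 0.76. The interaction of genotype and exercise was called for 0 members and for 0 of 16340 genes, with 1 member, *Dnajb1*, at an unadjusted p of 0.0274 (1.54, SE 0.66), where 403 genes were under 0.05, and DESeq2 called 0.

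The genotypes were also compared within each sex, a split chosen after the values had been seen. Among exercised males, the 3 mD3AKO mice had 88.6, 127.9 and 239.6 CPM of *Hspa1b* and the 3 WT mice 43.2, 46.6 and 84.2 CPM. For *Dnajb1* the values were 96.3, 136.0 and 182.6 CPM in mD3AKO males and 49.2, 57.1 and 57.6 CPM in WT males. *Hsp90aa1* had 117, 118 and 264 CPM against 90.3, 97.1 and 97.5 CPM. For 8 of the 10 members, all but *Hsph1* and *Cryab*, every exercised mD3AKO male lay above every exercised WT male, which held for 5.81% of tested genes.

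The test of this difference within males called 0 of 10 members by edgeR (8 at an unadjusted p under 0.05, as were 1053 of all 17389 genes, background of adjusted calls 0.0518% in either direction), and DESeq2 called 1, *Dnajb1*. The log2 difference of *Dnajb1* was 1.34 (SE 0.27, adjusted p = 0.068 from edgeR) and that of *Hspa1b* 1.39 (SE 0.44, adjusted p = 0.511). *Dnajb1* was called without mouse 3, 11, 14, 17, 22 or 23, and without the filter on low counts *Dnajb1* and *Hspb1* were called. Without mouse 19 the differences fell to 1.09 for *Dnajb1*, 0.90 for *Hspa1b* and 0.44 for *Hspb1*, which had been 1.27. In females, edgeR called 0 members (0 at an unadjusted p under 0.05, background 0.0403% in either direction), and 0 of 10 members had every exercised mD3AKO female above every exercised WT female, which held for 2.23% of tested genes. The interaction within males was called for 0 members by edgeR (6 at an unadjusted p under 0.05, as were 790 of all 17389 genes, of which 0 were called), with the lowest adjusted p, 0.241, for *Dnajb1* (1.96, SE 0.37).

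**Figure D3:**
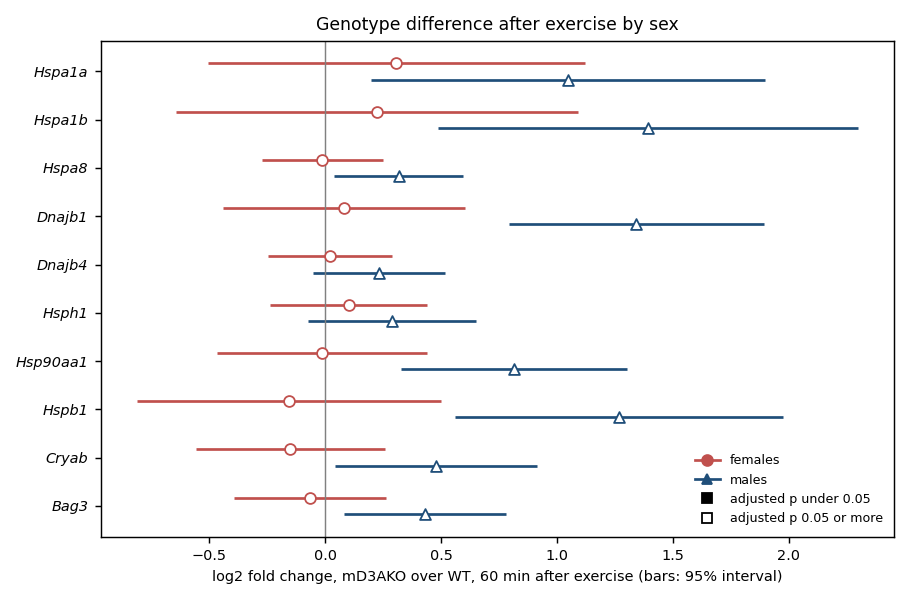
The horizontal axis gives the log2 difference of mD3AKO over WT mice 60 minutes after exercise for each member in females (circles) and males (triangles) with its 95% interval, and open points did not pass an adjusted p under 0.05. All points are open, the male values are all above 0, from 0.23 for *Dnajb4* to 1.39 for *Hspa1b*, and the female intervals all include 0.

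Members were high in the same mice. In the exercised males, 1 mouse (19) was the highest of all 13 exercised mice for 9 of 10 members, and mouse 17 was the highest for *Dnajb4*. Mouse 3, an mD3AKO female, and mouse 25, a WT female, were among the 4 lowest for all 10 members. The share of all tested genes with such ranks in these mice was not computed. Because exercised males and females formed separate groups for *Hspa1b*, the relation of each other member with *Hspa1b* (log2 CPM) was computed within each sex, over 18 relations with exact 2-sided permutation tests and Benjamini-Hochberg adjustment. For these relations and those at rest, the share of all genes that followed *Hspa1b* as closely was not computed. The counts below therefore do not show whether this is particular to the members. They include *Hspa1a*, whose reads could have been counted on *Hspa1b* and the reverse. The part of such reads in the relation of the 2 copies was not tested.

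In exercised males (n = 6), 6 of 9 members followed *Hspa1b* at an adjusted p under 0.05 by r and 5 by rho, and 7 by r and 1 by rho without TMM. The highest were *Hspa1a* (Pearson's r 0.968, Spearman's rho 1.00, exact permutation p = 0.00139 and 0.00278, adjusted 0.00833 and 0.0167) and *Bag3* (r 0.941, rho 0.943, exact permutation p = 0.00278 and 0.0167, adjusted 0.01 and 0.0375). Leaving out the 2 mice farthest from the median of *Hspa1b* gave an r of 0.985 for *Hspa1a* and 0.898 for *Bag3*. *Dnajb4* (r 0.338, exact permutation p = 0.537) did not pass in males, nor did *Cryab* (r 0.755, exact permutation p = 0.0833), with an r of −0.299 without these 2 mice. With each genotype centred on its own mean, 4 of 9 relations passed by r and 0 by rho, and r ran from −0.735 to 0.924.

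In exercised females (n = 7), 5 of 9 members followed *Hspa1b* both by r and by rho: *Hspa1a*, *Dnajb4*, *Hsp90aa1*, *Hspa8* and *Dnajb1*, with r from 0.877 to 0.973. Without TMM 5 passed by r and 1 by rho. *Dnajb4* had an r of 0.958 and a rho of 0.929 (exact permutation p = 0.00139 and 0.00675, adjusted 0.00833 and 0.0304), and an r of 0.917 without the 2 farthest mice. Over the 12 rested mice, 7 of 9 relations passed by r in a permutation test of 100000 resamples, adjusted over a family of 18, and 5 by rho, where *Hspb1* and *Bag3* did not pass. Without the 2 farthest mice, r fell from 0.917 to 0.797 for *Hspa1a*, from 0.860 to 0.576 for *Dnajb4*, from 0.718 to 0.575 for *Hspa8* and from 0.630 to 0.384 for *Hspb1*, and rose from 0.705 to 0.798 for *Hsph1*. The relation of *Dnajb1* with *Hspa1b* at rest did not pass (r 0.021, rho −0.070, permutation p = 0.947 and 0.833), and r was 0.099 without the 2 farthest mice. Whether it differed from the relation after exercise was not tested. Within the 7 rested males 2 of 9 relations passed by r and 1 by rho, adjusted over these 9, and no relation was computed over the 5 rested females. Rested mice spanned 4.59 to 13.4 CPM of *Hspa1b*.

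**Figure D4:**
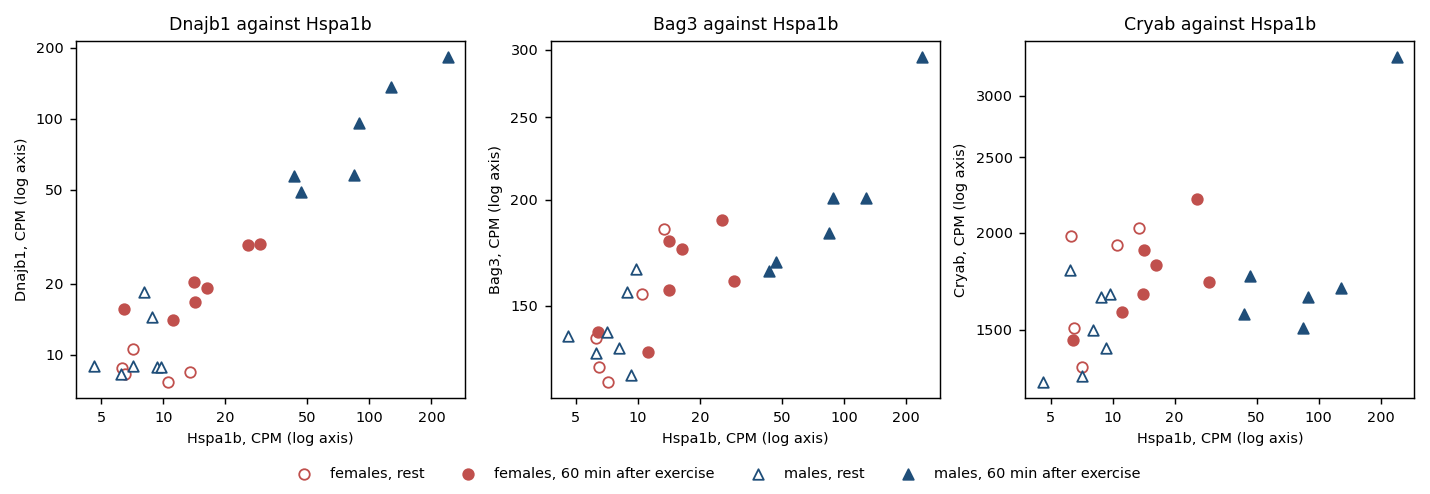
The 3 panels plot the CPM of *Dnajb1*, *Bag3* and *Cryab* against those of *Hspa1b* on log axes, with 1 point per mouse (open, rest; filled, 60 minutes after exercise; circles, females; triangles, males). *Dnajb1* follows *Hspa1b* across the exercised mice, and no such relation passed across the rested ones, a difference that was not tested. The high *Cryab* value of 3365 CPM belongs to the mouse with the most *Hspa1b*.

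Over all 25 libraries, the genes with the profiles most like *Hspa1b*, by the root mean square difference of standardized log2 CPM among 12686 candidates, were *Hspa1a* (0.138), *Dnajb1* (0.301), *Hsp90aa1* (0.323), *Ifrd1* (0.342) and *Hspa8* (0.343). For *Hsp90aa1* they were *Ppp1r15a* (0.276), which directs a phosphatase to the translation factor eIF2 alpha, *Hspa8* (0.281), *Hspa1b* (0.323), *Xirp1* (0.380) and *Hspb1* (0.385). For *Cryab* they were *Hspb7* (0.388), a small heat shock protein of striated muscle, *Myo18a* (0.484), *Usp28* (0.511), *Synpo2l* (0.565) and *Klhl40* (0.574), with larger differences than the nearest genes of the other 2. Reads of *Hspa1a* and *Hspa1b* could have been counted on either copy, and the part of such reads in their small difference was not tested.

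Exercise also raised some other genes of the chaperone system. Of 85 other chaperone and co-chaperone genes in 9 lists, 84 were tested, and exercise raised 24 and lowered 0 of them (median log2 fold change 0.105, against −0.000883 over all genes tested, of which 5.70% were called higher and 4.69% lower). With sex in the model the counts were 24 and 2. Without sex in the model, 5 were raised within WT mice (2.16% of all tested genes) and 18 within mD3AKO mice (3.70%). With sex in the model, 6 were raised and 1 was lowered in females (2.23% and 1.28% of all tested genes). In males 18 were raised (3.78%). *Hspb9*, with at most 7 counts in a library, was not tested. A sex difference of the response was called for 0 of the 84 genes (0.0460% of all tested genes). A genotype difference averaged over rest and exercise was called for 0 (0.269% of all tested genes). With shares this low, counts of 0 say nothing particular about these genes.

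Among HSP90 partners 7 of 13 rose, led by *Fkbp5* (log2 fold change 0.89, SE 0.15), a co-chaperone of steroid receptors, *Unc45a* (0.33, SE 0.039), *Chordc1* (0.27, SE 0.054) and *Ahsa2* (0.24, SE 0.057). Of the other J-domain genes 3 of 10 rose, namely *Dnaja1* (0.81, SE 0.092), *Dnajb5* (0.58, SE 0.072) and *Dnajb2* (0.36, SE 0.080). Among the other HSP70 and nucleotide exchange genes 4 of 16 rose, with at most 0.25 (SE 0.074) for *Hspa1l*, the neighbour of *Hspa1a*, followed by *Hspa4l* (0.22), *Hspa4* (0.19) and *Bag5* (0.15).

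ER chaperones rose in 7 of 14 cases, with *Hspa5* (BiP, the HSP70 of the endoplasmic reticulum) at 0.60 (SE 0.083), *Manf* at 0.57 (SE 0.095), *Sdf2l1* at 0.53 (SE 0.14) and *Creld2* at 0.32 (SE 0.098). The cytosolic chaperonin TRiC rose in 1 of 8 cases (*Cct2*, 0.13), or in 0 with sex in the model, and the mitochondrial chaperones in 1 of 8 (*Hspe1*, 0.25). Of the BAG3 partners 1 of 6 rose, *Flnc* (0.56, SE 0.17), the filamin that BAG3 clears, with 3283 ± 2035 CPM (SD, n = 6) in exercised mD3AKO mice, 1764 ± 463 CPM (n = 7) in rested mD3AKO mice, 1954 ± 254 CPM (n = 5) in rested WT mice and 2284 ± 383 CPM (n = 7) in exercised WT mice. Of the 5 other small heat shock proteins tested 0 were called over both genotypes (median 0.068), while with sex in the model 1 was, and *Hspb8*, the partner of BAG3, rose in males (0.63, SE 0.15, adjusted p = 0.0135 from edgeR). The level of *Hspb8* was 516 ± 278 CPM (SD, n = 6) in exercised and 333 ± 50.0 CPM (n = 7) in rested mD3AKO mice, and 387 ± 35.9 CPM (n = 7) in exercised and 339 ± 39.6 CPM (n = 5) in rested WT mice. For *Flnc* and *Hspb8*, with their wide spread in exercised mD3AKO mice, fits without single mice were not made. The regulators were not called either (0 of 4), with *Hsf1* at 0.05, *Hsf2* at −0.11, *Hsf4* at −0.15 and *Hsbp1* at 0.0018.

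**Figure D5:**
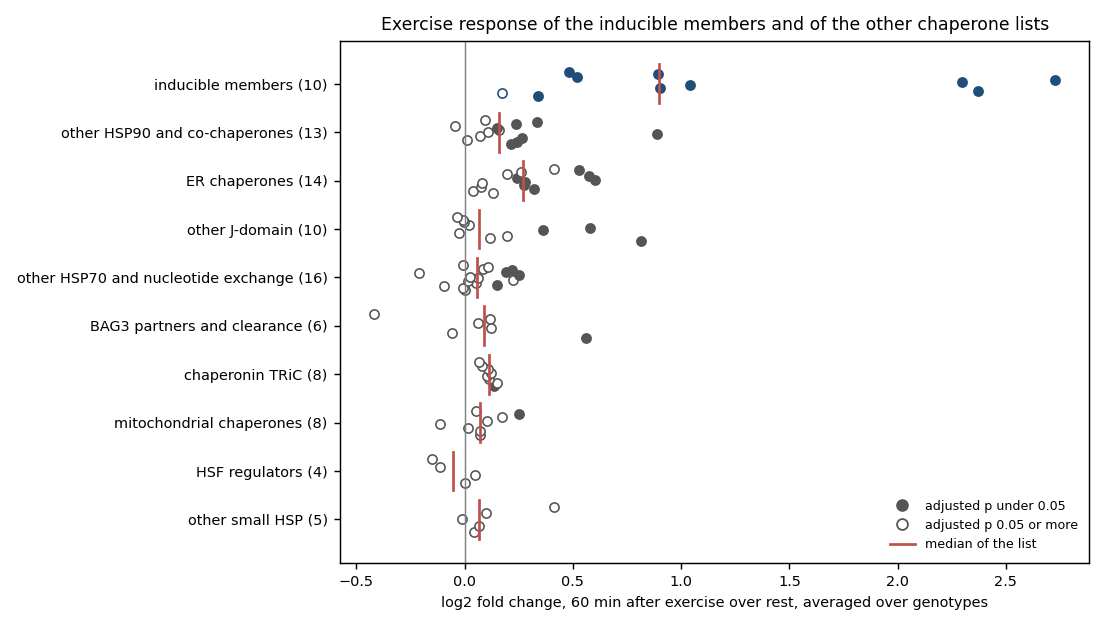
Each row plots the log2 fold change of exercise, averaged over genotypes, of the 10 members and of the tested genes of 9 other chaperone lists (number of genes in parentheses), filled where the adjusted p was under 0.05, with a line at the median. The members reach 2.73, while the highest value in the other lists is 0.89 for *Fkbp5*.

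Markers of other cell types moved with exercise in part. Of 5 endothelial markers 4 fell, where 4.69% of all tested genes were called lower, with summed levels of 323 to 443 CPM at rest and 277 to 362 CPM after exercise, 2 of 4 satellite cell markers fell (summed 37.0 to 45.7 CPM at rest and 30.7 to 39.1 CPM after exercise), and 1 of 6 tested immune markers fell (summed 29.2 to 92.3 CPM at rest and 18.0 to 89.8 CPM after exercise). No fibroblast, adipocyte, Schwann cell or blood marker was called for exercise. For a sex difference of the response 0 markers of any list were called, as were only 0.0460% of all tested genes. The immune markers *Cd3e*, *S100a8* and *S100a9* were at 0 in some libraries. The part of these cells in the members' results was not tested.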

How the data were processed

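Total RNA depleted of ribosomal RNA was sequenced from the *soleus* of 25 mice as stranded 75-bp paired-end libraries. The authors aligned the reads to mm10 with STAR 2.5.3a, after FastQC 0.11.5, and counted them per gene with featureCounts 1.5.3, and the deposited values are whole-number counts per gene that were not normalized. The options for strand and for multiply mapped reads are not given in the sources used here. No library equalled another of its own group (67 pairs).

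Counts were analysed with edgeR 4.0.16 (limma 3.58.1, R 4.3.3) with TMM factors, filterByExpr (count minimum 10, total minimum 15), its quasi-likelihood test, and p-values adjusted by Benjamini-Hochberg over every tested gene (threshold 0.05), with 1 mean per group, or with 1 mean per sex, genotype and exercise state for comparisons of the sexes. The tests recovered fold changes added to simulated counts. These counts were drawn with the spread fitted to these data, and changes as small as that of *Bag3* were not simulated. log2 CPM used a prior count of 2, and SE is the log2 fold change divided by the root of F. All mice shared one estimate of the spread, and p-values measure the spread between these mice. The 10 members and the gene lists were chosen with earlier results of these data known. Of each list of related genes, the called ones were named, at most the 4 largest, and all HSF regulators, and the 5 nearest profiles were named for *Hspa1b*, *Hsp90aa1* and *Cryab* among genes averaging at least 0 in log2 CPM. Alternatives were DESeq2 1.42.0, no TMM, no filter, robust estimation, sex as a term, each sex alone, the summed *Hspa1* copies, and leaving out each mouse. Comparisons within a sex or genotype beyond these, and a term for the ranges of mouse numbers, were chosen after seeing the data.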

Additional observations from a re-analysis of the deposited data

Results flagged for a closer look

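In 40 sets of values, 1 for each member in each group of 5 to 7 mice, 8 had a single value far from the others by Dixon's criterion. Chance gives about 1 in 20 for independent sets. These sets share the same mice and mix the sexes, so the count cannot be read against that rate. Mouse 19, an exercised mD3AKO male, was far above its group for *Hsph1* (116 CPM, next 77.6), *Hsp90aa1* (264 CPM, next 118), *Hspb1* (1013 CPM, next 314) and *Cryab* (3365 CPM, next 1725). In this mouse *Hspa1b* made up 63.0% of the summed counts of *Hspa1a* and *Hspa1b*, against 40.7% to 53.4% in the other mice. Mouse 2, a rested mD3AKO female, was high for *Hspa1a* (19.6 CPM, next 11.4) and *Hspb1* (212 CPM, next 148). *Dnajb1* was highest in the rested mD3AKO female 21 (10.6 CPM, next 8.97), and *Hspa8* was lowest in the exercised WT female 25 (634 CPM, next 794).

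The response to exercise differed between males and females, by the test of the difference in edgeR, for *Hspa1a* (log2 2.55), *Hspa1b* (2.65), *Dnajb1* (1.71) and *Dnajb4* (0.77), with the larger response in males in each case. The range of mouse numbers cannot be told apart from sex.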

How the results depend on the processing

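Of 95 recomputed counts of members, 81 stayed within 1.5 times the reported count, and of 740 recomputed values of single members 673 kept their direction and their side of the threshold. For the recomputed counts, the share of all genes called is not given. In females alone, exercise raised 4 members over both genotypes, 0 in WT and 0 in mD3AKO mice. In WT mice the count rose from 1 to 5 with DESeq2, 6 with sex as an additive term, 6 with sex in the groups, 4 in males alone and 6 with a term for mouse number ranges (chosen after seeing the data). DESeq2 and the fit without a filter each gave 5 for exercise in females and, for genotype in exercised males, 1 and 2. Robust estimation left 2 members for the sex difference, and 4 were higher in males after exercise without TMM. Without TMM, 1 relation with *Hspa1b* passed by r in rested males, against 2, and the count by rho fell from 5 to 1 in exercised males and in exercised females. In females alone *Cryab* turned to −0.033 for exercise. There, the genotype difference after exercise turned to −0.020 for *Hspa8* and *Hsp90aa1*, −0.16 for *Hspb1* and *Cryab* and −0.074 for *Bag3*, and the interaction to −0.0013 for *Hspa1a*, −0.065 for *Dnajb1*, −0.023 for *Dnajb4*, −0.14 for *Hsp90aa1*, −0.23 for *Hspb1* and −0.053 for *Bag3*. The fits to 1 sex hold fewer mice, and the cause of each change was not tested.

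Leaving out 1 mouse at a time gave 1 to 4 members within WT, 1 to 4 for the sex difference, 1 to 5 in females and 0 to 1 for genotype in exercised males. *Cryab* ranged from −0.085 to 0.077 in females, −0.084 to 0.024 within WT, −0.069 to 0.22 for genotype after exercise and −0.079 to 0.22 for males over females after exercise, and *Hsph1* from −0.011 to 0.20 for the sex difference. No paired analysis was possible because each mouse number occurs in 1 group only. The lowest count of a member in any library was 127.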
